A study of Mus musculus with 12 samples.

Results

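The Notch receptors, ligands and targets of mouse liver were followed here as 10 genes, taken as the rows of the deposited count table whose symbol was Notch1, Notch2, Notch3, Notch4, Jag1, Jag2, Dll1, Dll4, Hes1 or Hey1. All 10 were present among the 55357 genes of the table, and all 10 passed the filter on low counts that left 17358 genes for testing. The study crossed a genotype with a diet in mice on the C57BL/6J background, and both genotypes carried the floxed Ppara allele (PPARafl/fl). WT mice lacked Cre (AlbuminCre+/+), while PPARα KO mice carried it (AlbuminCreTg/+), and the Albumin promoter that drives this Cre is active in hepatocytes, so other liver cells kept the gene. Mice received chow or CDAHFD, a high-fat diet that lacks choline and supplies defined amino acids, for 6 weeks. Whole-liver RNA gave 4 libraries of WT chow, 3 of WT CDAHFD, 2 of KO chow and 3 of KO CDAHFD. The study speaks of RNA from 3 mice in each group, which differs from these numbers of libraries. The labels do not say in words that each library is a mouse of its own, so the p-values measure the spread between these libraries.

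Notch signalling acts between touching cells. A ligand of the Jagged or Delta-like family on one cell binds a Notch receptor on its neighbour, ADAM metalloproteases and gamma-secretase then cut the receptor, and the freed intracellular domain enters the nucleus, where it joins RBPJ and Mastermind proteins and switches on Hes and Hey genes. In the liver the pathway is best known for the formation of bile ducts, where Jag1 and Notch2 act, and for the patterning of vessels, where Dll4, Notch1 and Notch4 act in endothelial cells. Notch3 is typical of vascular smooth muscle and pericytes, and Hes1 and Hey1 encode transcriptional repressors.

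On GRCm38, Notch1 (ENSMUSG00000026923) lies on chromosome 2 from 26457903 to 26516663, Jag1 (ENSMUSG00000027276) on chromosome 2 from 137081456 to 137116644 and Dll4 (ENSMUSG00000027314) on chromosome 2 from 119325784 to 119335962. Notch2 (ENSMUSG00000027878) lies on chromosome 3 from 98013527 to 98150361 and Hey1 (ENSMUSG00000040289) on chromosome 3 from 8663359 to 8667256. Chromosome 17 holds Notch3 (ENSMUSG00000038146) from 32120820 to 32166852, Notch4 (ENSMUSG00000015468) from 34564268 to 34588503 and Dll1 (ENSMUSG00000014773) from 15367354 to 15376872. Jag2 (ENSMUSG00000002799) lies on chromosome 12 from 112907819 to 112929776 and Hes1 (ENSMUSG00000022528) on chromosome 16 from 30064384 to 30067796. The counts sum reads over each gene. No gene overlapping a member held 10% of that member's counts, and the highest share was 6.707%, held by Gm14207 on the strand opposite to Dll4.

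The sequences before the start sites of Jag1, Dll1 and Dll4 are shown because Jag1 and Dll1 rose in all 3 comparisons with WT chow while Dll4 fell in both CDAHFD groups. They come from RefSeq windows on GRCm38.p6, kept to the bases before both the RefSeq start and the start of the gene in GENCODE M21, and are written 5′ to 3′ on the strand of the gene. Capitals mark CG dinucleotides, of which the Jag1 stretch of 126 bases holds 14, the Dll1 stretch of 250 bases 13 and the Dll4 stretch of 250 bases 14. The positions are chr2:137116645-137116770 on the minus strand for Jag1, chr17:15376933-15377182 on the minus strand for Dll1 and chr2:119325534-119325783 on the plus strand for Dll4.
Jag1: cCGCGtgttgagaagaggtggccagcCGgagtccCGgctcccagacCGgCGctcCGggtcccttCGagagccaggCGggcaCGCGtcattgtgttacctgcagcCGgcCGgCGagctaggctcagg
Dll1: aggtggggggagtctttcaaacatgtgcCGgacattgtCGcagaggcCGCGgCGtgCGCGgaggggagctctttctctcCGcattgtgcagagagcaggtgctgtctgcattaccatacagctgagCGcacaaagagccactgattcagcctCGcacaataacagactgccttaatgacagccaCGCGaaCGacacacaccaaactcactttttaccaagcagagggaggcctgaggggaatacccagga
Dll4: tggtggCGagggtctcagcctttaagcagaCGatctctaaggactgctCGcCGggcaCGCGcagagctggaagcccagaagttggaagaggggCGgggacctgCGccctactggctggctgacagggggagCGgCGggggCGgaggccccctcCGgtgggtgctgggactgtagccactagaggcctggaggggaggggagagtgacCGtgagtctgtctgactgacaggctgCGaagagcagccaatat
RefSeq windows of 300 bases, with 250 before and 50 after the start, were found for 8 members, in 9 windows since Dll1 has 2, and Hes1 and Hey1 had none. The core of the RBPJ motif, TGGGAA, was searched on both strands. It occurred in 25.56% of all 32851 RefSeq windows and in none of the 9. The DR1 motif read by PPARα with its RXR partner, a direct repeat of AGGTCA with 1 base between the copies, occurred in 0.03957% of all windows and in none of the 9. Its half-site AGGTCA, which every such repeat also contains, occurred in 16.26% of all windows and once among the members, in the other Dll1 window at position -109 from the start. These are matches of letters only. CG dinucleotides numbered 5 (Notch4) to 63 (Jag2) in the members' windows, beside a median of 7 over all windows.

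Total counts per library ran from 29906785 to 43551003, and a gene at 0 could still stand at up to 3 counts in that library, a limit of counting error only. Ppara, the deleted gene, had 96.2 to 237.8 CPM (counts scaled to a common library total) for WT chow, 59.5 to 75.5 for WT CDAHFD, 14.4 and 38.7 for KO chow and 20.7 to 51.9 for KO CDAHFD. Its log2 fold change in KO chow relative to WT chow was -2.68 (SE 0.50, BH-adjusted p = 0.00111 by the quasi-likelihood test of edgeR), and its counts come from the whole gene and from all liver cells. The hepatocyte marker Alb stood at 30382 CPM or more in every library. Libraries of one group also differed in the levels of circadian clock genes, least so in WT CDAHFD. A score, the mean log2 CPM of 5 clock genes high around the end of the night less that of 7 genes high in the second part of the day, was 4.17, 3.91, -2.25 and -2.18 for WT chow, 1.33 to 2.14 for WT CDAHFD, 3.32 and -0.51 for KO chow, and 1.78, 1.71 and -3.17 for KO CDAHFD. Within WT chow, KO chow and KO CDAHFD, Ppara was lower in libraries with a score above 0 than in those below 0. Below, CPM use library sizes scaled by edgeR's TMM method, values are given in the order of the replicate numbers, log2 fold changes and adjusted p come from edgeR's quasi-likelihood test, and an adjusted p under 0.05 over all genes tested is called a change. Scaling by library size alone shifts the median over all genes of the log2 fold change against WT chow up to 0.40 for KO chow, 0.51 for WT CDAHFD and 0.57 for KO CDAHFD, from 0.00, -0.05 and -0.04.

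Relative to WT chow, the ligands Jag1 and Dll1 and the target Hey1 rose in all 3 other groups. Dll4 fell in both CDAHFD groups, and Notch3 rose in both. Notch1 rose in WT CDAHFD, Hes1 in KO CDAHFD, and the scarce Jag2 in KO chow and KO CDAHFD, while Notch2 and Notch4 passed the test in none of these comparisons, though Notch2 did in both CDAHFD groups with scaling by library size only. In KO chow 4 of the 10 genes rose and none fell, beside 39.0% of all genes tested that changed and 22.0% that rose. WT CDAHFD had 5 that rose and 1 that fell, beside 51.1% of all genes that changed, 26.1% that rose and 25.0% that fell. KO CDAHFD had 6 that rose and 1 that fell, beside 52.4% of all genes that changed, 26.9% that rose and 25.4% that fell. With scaling by library size only, 6 rose and none fell in KO chow, 8 rose and 1 fell in WT CDAHFD, and 8 rose and none fell in KO CDAHFD. That scaling added Notch3 and Hes1 in KO chow and Notch2, Jag2 and Hes1 in WT CDAHFD. In KO CDAHFD it added Notch1 and Notch2 and lost Dll4. DESeq2 called 6 of the 10 in KO chow, adding Notch3 and Hes1 to the 4, as did edgeR without the filter on low counts. The median log2 fold change of the 10 genes was 0.65 for KO chow, 0.90 for WT CDAHFD and 1.10 for KO CDAHFD, beside medians over all genes of 0.00, -0.05 and -0.04. In KO chow 5 of the 10 had values wholly above WT chow and none wholly below, beside 50.2% of all genes whose groups did not overlap, 27.2% above and 23.0% below. The counts were 5 above and 1 below with WT CDAHFD, beside 55.4% of all genes, 28.0% above and 27.4% below. They were 5 above and 1 below with KO CDAHFD, beside 51.5% of all genes, 26.7% above and 24.8% below. The same WT chow libraries enter all 3 comparisons.

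**Figure D1:**
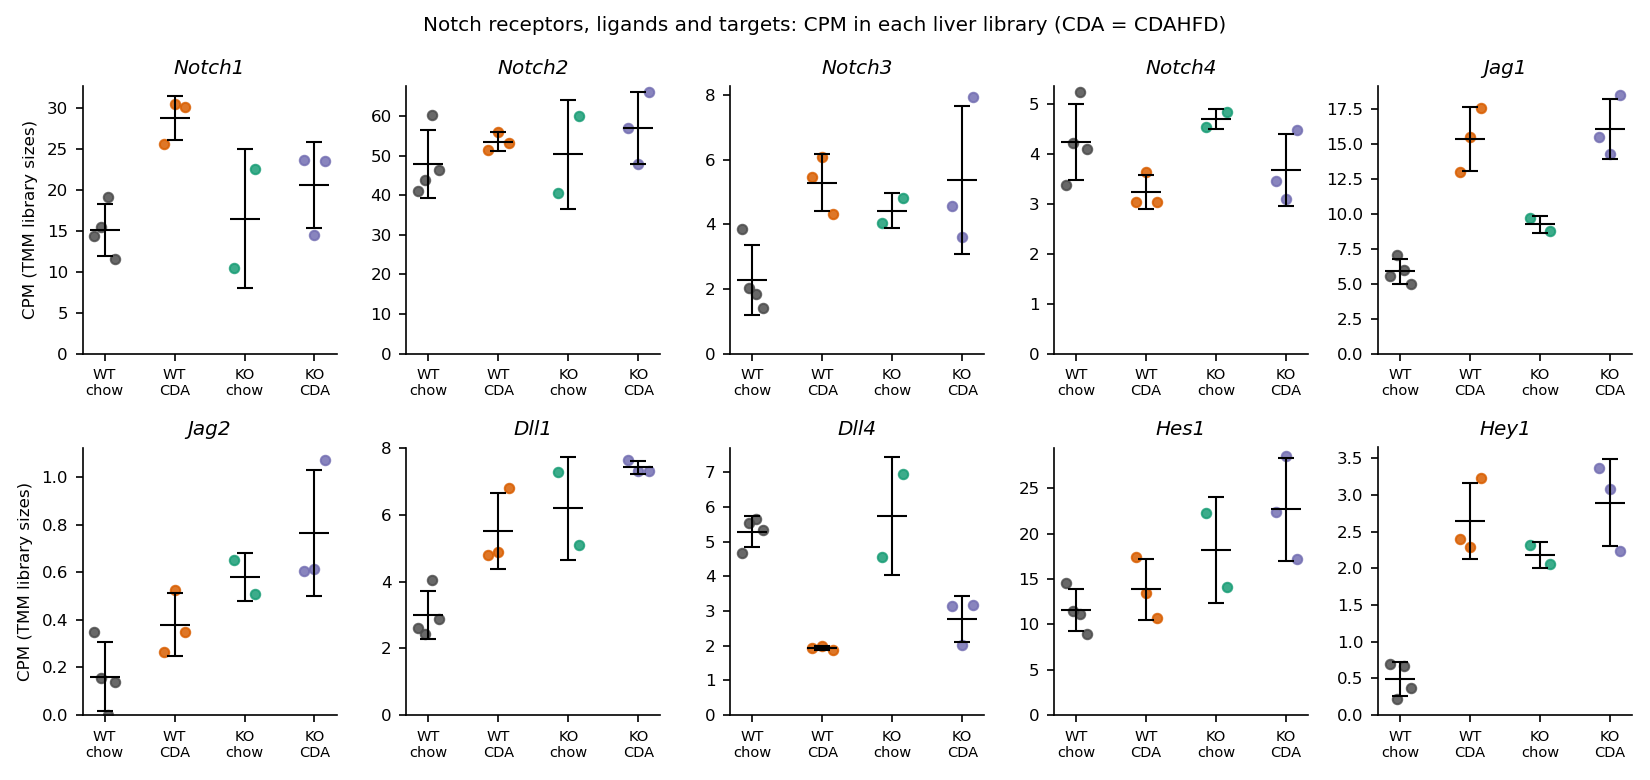
CPM (TMM library sizes, linear axis from 0) of the 10 Notch genes in each liver library, by group, with 1 point per library and bars for the mean ± SD (WT chow n = 4, WT CDAHFD n = 3, KO chow n = 2, KO CDAHFD n = 3). Jag1 and Hey1 lie above every WT chow library in the other 3 groups, and Dll4 lies below every WT chow library in both CDAHFD groups.

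Across genes, levels were compared per exon length as TPM (counts per base of exon, scaled to a common total) within a group. In WT chow, Hes1 was the highest at 11.01 TPM ± 2.81 (SD, n = 4), followed by Notch2 at 8.55 ± 1.60, Dll4 at 2.64 ± 0.184, Notch1 at 2.06 ± 0.479, Jag1 at 1.95 ± 0.312, Dll1 at 1.37 ± 0.347, Notch4 at 1.01 ± 0.182, Notch3 at 0.553 ± 0.292, Hey1 at 0.293 ± 0.151 and Jag2 at 0.0454 ± 0.0429. The means ± SD of the neighbours Hes1 and Notch2 overlapped, as did those of Dll4 and Notch1 and of Notch1 and Jag1, while those of Notch2 and Dll4 lay far apart. In WT CDAHFD the order was Hes1 at 21.8 TPM ± 5.10 (SD, n = 3), Notch2 at 16.0 ± 1.34, Jag1 at 8.51 ± 1.35, Notch1 at 6.54 ± 0.810, Dll1 at 4.19 ± 0.822, Hey1 at 2.60 ± 0.469, Notch3 at 2.11 ± 0.417, Dll4 at 1.62 ± 0.111, Notch4 at 1.30 ± 0.191 and Jag2 at 0.177 ± 0.0687. By mean, Dll4 thus came next after Hes1 and Notch2 in WT chow, while in WT CDAHFD that place was held by Jag1 and Dll4 lay below Hey1 and Notch3. In WT CDAHFD the means ± SD of Jag1 and Notch1 overlapped, as did those of Notch3 and Dll4. TPM carry no correction for composition, so they are not compared between groups here.

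Notch2, the receptor that acts in bile duct formation, was the most abundant receptor. Its CPM were 41.0, 43.8, 60.3 and 46.2 for WT chow, 51.3, 56.0 and 53.1 for WT CDAHFD, 40.6 and 59.98 for KO chow, and 57.0, 47.8 and 66.1 for KO CDAHFD. All groups overlapped WT chow. Its log2 fold change was 0.07 (95% interval -0.33 to 0.47, BH-adjusted p = 0.783) for KO chow, 0.16 (-0.19 to 0.51, BH-adjusted p = 0.436) for WT CDAHFD and 0.25 (-0.10 to 0.60, BH-adjusted p = 0.216) for KO CDAHFD, which passed without WT chow replicate 3 (0.42, BH-adjusted p = 0.0456). These values depended on the scaling, since with library size only Notch2 passed with 0.72 (BH-adjusted p = 0.00325) for WT CDAHFD and 0.87 (BH-adjusted p = 8.34e-04) for KO CDAHFD. In the fit of 8 libraries with a clock score above 0 it passed for WT CDAHFD (0.34, BH-adjusted p = 0.0252).

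Notch1 encodes a receptor found on endothelial, immune and biliary cells. It had 14.3, 15.5, 19.1 and 11.5 CPM in WT chow and 25.7, 30.6 and 30.2 CPM in WT CDAHFD. Every WT CDAHFD library lay above every WT chow library, and the log2 fold change was 0.93 (SE 0.25, BH-adjusted p = 0.00735). KO chow held 10.5 and 22.5 CPM, on either side of the WT chow range, with a log2 fold change of 0.12 (SE 0.28, BH-adjusted p = 0.756), and the lower value belongs to the library with the higher clock score. No such order of Notch1 with the score was seen in WT chow or KO CDAHFD. KO CDAHFD held 23.7, 14.5 and 23.6 CPM, with a log2 fold change of 0.45 (SE 0.25, BH-adjusted p = 0.152), and 1 library lay within the WT chow range. This KO CDAHFD difference passed in 2 of 21 alternative fits, with scaling by library size only and without the filter on low counts. The study lists Notch1 among transcription factors it chose as differentially expressed in these samples, so its call is not independent of that list.

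Notch3, the receptor of vascular smooth muscle and pericytes, had 3.84, 2.01, 1.83 and 1.42 CPM in WT chow, where replicate 1 stood above the others. It had 5.45, 6.08 and 4.33 CPM in WT CDAHFD, all above WT chow, and the log2 fold change was 1.21 (SE 0.33, BH-adjusted p = 0.00779). KO CDAHFD held 4.56, 3.61 and 7.94 CPM, of which 1 lay below the highest WT chow library, with a log2 fold change of 1.24 (SE 0.33, BH-adjusted p = 0.00672). In KO chow its 4.05 and 4.802 CPM lay above WT chow, but the log2 fold change of 0.96 (SE 0.37, BH-adjusted p = 0.0543) missed the threshold. Without WT chow replicate 1 this difference passed (1.34, BH-adjusted p = 0.00646), as it did without KO CDAHFD replicate 2 (BH-adjusted p = 0.0474) or replicate 3 (BH-adjusted p = 0.0314), and in a fit of the 8 libraries with a clock score above 0 the KO CDAHFD difference did not (0.49, BH-adjusted p = 0.228).

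Notch4, a receptor largely restricted to endothelium, had 3.38, 4.22, 5.24 and 4.08 CPM in WT chow, 3.03, 3.63 and 3.04 for WT CDAHFD, 4.54 and 4.83 for KO chow, and 3.44, 3.10 and 4.47 for KO CDAHFD. All groups overlapped WT chow. The log2 fold changes were 0.15 (95% interval -0.31 to 0.60, BH-adjusted p = 0.617) for KO chow, -0.39 (-0.80 to 0.02, BH-adjusted p = 0.104) for WT CDAHFD and -0.20 (-0.61 to 0.20, BH-adjusted p = 0.387) for KO CDAHFD, and both CDAHFD values turn positive with scaling by library size only.

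Jag1 encodes the ligand of bile duct formation. Its CPM were 5.55, 7.05, 6.00 and 4.95 for WT chow, 5.89 ± 0.885 (SD, n = 4). It had 9.71 and 8.80 CPM in KO chow, 9.26 ± 0.640 (SD, n = 2), and the log2 fold change was 0.65 (SE 0.17, BH-adjusted p = 0.00989). WT CDAHFD held 13.0, 15.5 and 17.6 CPM, a log2 fold change of 1.38 (SE 0.15, BH-adjusted p = 1.00e-05). KO CDAHFD held 15.5, 14.3 and 18.5 CPM, a log2 fold change of 1.45 (SE 0.15, BH-adjusted p = 6.19e-06). The 4 groups fell into 3 levels, with WT chow lowest, KO chow between and the CDAHFD groups overlapping each other at the top. The KO chow call was lost without KO chow replicate 1 (0.59) and in the fit of 8 libraries with a clock score above 0 (0.62). Each of these fits keeps 1 KO chow library.

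Jag2, another Jagged ligand, was near the limit of detection in WT chow, with 9, 5, 0 and 3 counts, or 0.349, 0.157, 0 and 0.138 CPM. It had 0.266, 0.524 and 0.350 CPM in WT CDAHFD, 0.653 and 0.509 for KO chow, and 0.606, 0.615 and 1.07 for KO CDAHFD. Both KO groups lay above WT chow, and WT CDAHFD overlapped it. The log2 fold change was 2.26 (SE 0.60, BH-adjusted p = 0.00661) for KO CDAHFD, 1.86 (SE 0.66, BH-adjusted p = 0.0414) for KO chow and 1.26 (SE 0.62, BH-adjusted p = 0.1096) for WT CDAHFD, sizes that rest on few counts. The KO chow call held in 9 of 21 alternative fits, among those that left out 1 library only without WT chow replicate 1, WT CDAHFD replicate 2 or KO CDAHFD replicate 3, with adjusted p up to 0.182. The WT CDAHFD difference passed without WT chow replicate 1 (1.97, BH-adjusted p = 0.0271) or with scaling by library size only (1.80, BH-adjusted p = 0.0286). The KO CDAHFD call was lost in the fit of 8 libraries with a clock score above 0 (1.29, BH-adjusted p = 0.0914).

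Dll1, a Delta-like ligand, had 2.60, 2.42, 4.03 and 2.89 CPM in WT chow and 7.29 and 5.09 CPM in KO chow. WT CDAHFD held 4.79, 4.89 and 6.82 CPM and KO CDAHFD 7.64, 7.33 and 7.30 CPM. The 3 groups lay above every WT chow library. Its log2 fold change was 1.05 (SE 0.23, BH-adjusted p = 0.00321) for KO chow, 0.88 (SE 0.21, BH-adjusted p = 0.00354) for WT CDAHFD and 1.31 (SE 0.21, BH-adjusted p = 1.81e-04) for KO CDAHFD. Without KO chow replicate 1 the KO chow difference missed the threshold (0.79, BH-adjusted p = 0.0607).

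Dll4 encodes the Delta-like ligand of endothelial cells. It had 4.66, 5.54, 5.64 and 5.32 CPM in WT chow, 5.29 ± 0.440 (SD, n = 4), and 4.54 and 6.94 CPM in KO chow, on either side of that range. KO chow differed from WT chow by a log2 fold change of 0.12 (95% interval -0.36 to 0.60, BH-adjusted p = 0.703). WT CDAHFD held 1.93, 2.0002 and 1.88 CPM, 1.94 ± 0.0610 (SD, n = 3), and KO CDAHFD 3.15, 2.01 and 3.16 CPM, 2.77 ± 0.665 (SD, n = 3). Every CDAHFD library lay below every chow library in these TMM-scaled values. By library size only this separation was not complete. KO CDAHFD replicate 3 (133 of 33442725 counts) then lies above WT chow replicate 1 (120 of 31163026). Against WT chow, Dll4 had a log2 fold change of -1.45 (SE 0.21, BH-adjusted p = 8.78e-05) for WT CDAHFD and -0.93 (SE 0.20, BH-adjusted p = 0.00203) for KO CDAHFD. With scaling by library size only, these were -0.89 (BH-adjusted p = 0.00388) and -0.31 (BH-adjusted p = 0.229), so the call in KO CDAHFD was lost.

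Among the targets, Hey1 had 0.699, 0.220, 0.667 and 0.367 CPM in WT chow, from 7 or more counts in each library. KO chow held 2.31 and 2.06 CPM, WT CDAHFD 2.40, 2.29 and 3.23 CPM, and KO CDAHFD 3.37, 3.07 and 2.24 CPM. These 8 libraries lay well above WT chow and overlapped each other. Its log2 fold change was 2.16 (SE 0.36, BH-adjusted p = 4.28e-04) for KO chow, 2.43 (SE 0.33, BH-adjusted p = 4.98e-05) for WT CDAHFD and 2.56 (SE 0.33, BH-adjusted p = 3.01e-05) for KO CDAHFD. These 3 calls held in each of the 21 alternative fits.

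Hes1 had 14.6, 11.4, 11.2 and 8.94 CPM in WT chow and 17.4, 13.4 and 10.6 CPM in WT CDAHFD, groups that overlapped, with a log2 fold change of 0.26 (SE 0.23, BH-adjusted p = 0.367). KO chow held 22.3 and 14.1 CPM, where the second lay within the WT chow range, with a log2 fold change of 0.65 (SE 0.26, BH-adjusted p = 0.0599). KO CDAHFD held 22.4, 28.5 and 17.2 CPM, all above WT chow, and the log2 fold change was 0.97 (SE 0.23, BH-adjusted p = 0.00317). With scaling by library size only, Hes1 also passed for KO chow (1.05, BH-adjusted p = 0.00526) and WT CDAHFD (0.81, BH-adjusted p = 0.0100). In WT chow, KO chow and KO CDAHFD, the libraries with a clock score above 0 had more Hes1 than those with a score below 0. In WT chow the nearest of them, at 11.4 and 11.2 CPM, lay close. All WT CDAHFD scores were above 0, and there the library with the lowest score, 1.33, had the most Hes1. With the score as a covariate the KO chow difference passed the threshold (0.60, BH-adjusted p = 0.0331) and the KO CDAHFD difference was 1.03 (BH-adjusted p = 4.34e-04). The KO chow difference also passed without WT chow replicate 1 (0.80, BH-adjusted p = 0.0260), KO chow replicate 2 (0.95, BH-adjusted p = 0.0298) or KO CDAHFD replicate 3 (0.66, BH-adjusted p = 0.0475). The part of the clock score in these values was not tested further.

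**Figure D2:**
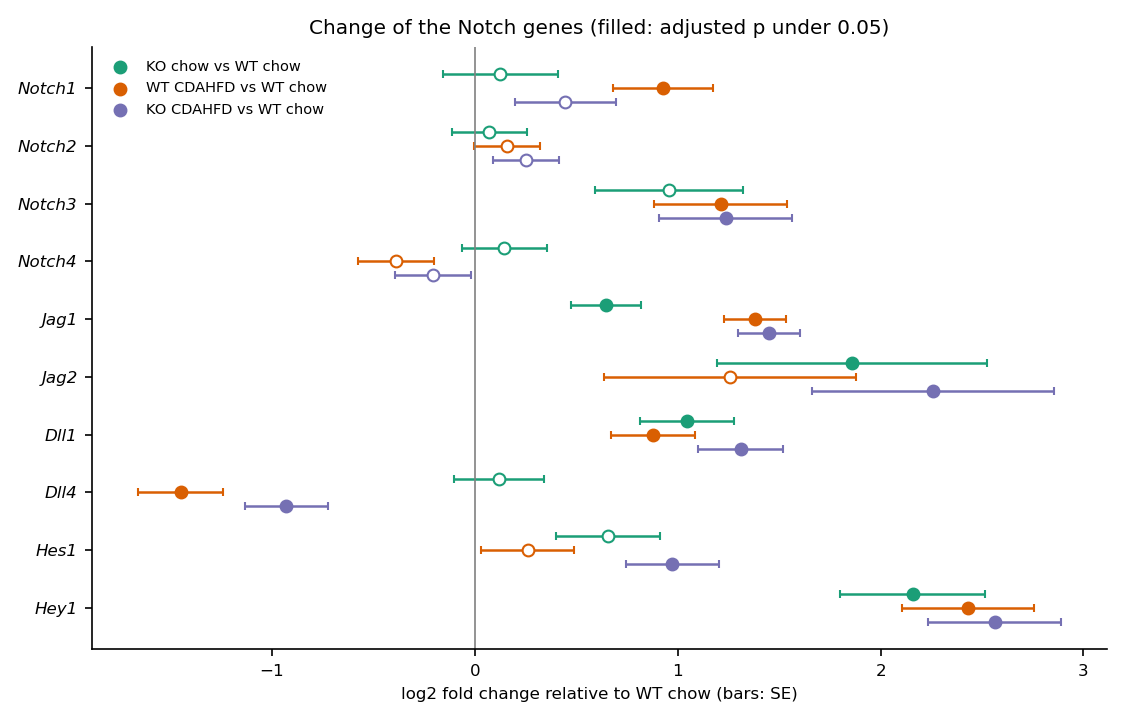
Log2 fold change of the 10 Notch genes in the other 3 groups relative to WT chow (horizontal axis, bars for the SE from edgeR's quasi-likelihood test, filled points for an adjusted p under 0.05). Jag1, Dll1 and Hey1 have filled points on the right in all 3 comparisons, and Dll4 has filled points on the left at -1.45 and -0.93.

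The other comparisons asked how genotype and diet acted on each other's background. Between KO CDAHFD and WT CDAHFD none of the 10 genes passed edgeR's quasi-likelihood test, beside 0.357% of all genes tested (0.0864% higher and 0.271% lower), and DESeq2 called none as well. The groups did not overlap for 4 of the 10, with Jag2, Dll1 and Dll4 above and Notch1 below in KO CDAHFD, beside 20.8% of all genes, 9.47% above and 11.3% below. Ppara itself differed between these groups by a log2 fold change of -0.94 (SE 0.42, BH-adjusted p = 0.547). An unadjusted p under 0.05 was reached by 2 of the 10 genes. These were Hes1, with a log2 fold change of 0.71 (95% interval 0.18 to 1.24, BH-adjusted p = 0.383), and Dll4, with 0.52 (0.05 to 0.99, BH-adjusted p = 0.513). The intervals of Notch1 (-1.06 to 0.09), Dll1 (-0.04 to 0.90) and Jag2 (-0.19 to 2.19) also leave room for sizeable differences.

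Within the KO genotype, CDAHFD against chow raised Jag1 by 0.80 on the log2 scale (SE 0.19, BH-adjusted p = 0.0265) and lowered Dll4, with a log2 fold change of -1.05 (SE 0.23, BH-adjusted p = 0.0227), beside 6.19% of all genes tested, 3.76% higher and 2.44% lower. These groups did not overlap for 4 of the 10, with Jag1 and Dll1 above and Notch4 and Dll4 below, beside 39.1% of all genes, 19.9% above and 19.2% below. With only these groups fitted neither call held (Jag1 BH-adjusted p = 0.0528, Dll4 BH-adjusted p = 0.101). Leaving out KO chow replicate 2 also ended both (Jag1 0.73, BH-adjusted p = 0.129, and Dll4 -0.71, BH-adjusted p = 0.163), and leaving out KO chow replicate 1 ended that of Jag1 (0.89, BH-adjusted p = 0.122). The Jag1 call was also lost without KO CDAHFD replicate 1 (0.83, BH-adjusted p = 0.0627) or replicate 3 (0.69, BH-adjusted p = 0.0802), and the Dll4 call without KO CDAHFD replicate 2 (-0.86, BH-adjusted p = 0.0505). In the direct comparison of KO chow with WT CDAHFD, Dll4 was higher in KO chow by 1.57 (SE 0.23, BH-adjusted p = 0.00239) and Jag1 lower, with a log2 fold change of -0.73 (SE 0.18, BH-adjusted p = 0.0368), beside 6.12% of all genes tested, 2.71% higher and 3.42% lower. Groups did not overlap for 4 of the 10, with Notch4 and Dll4 above and Notch1 and Jag1 below, beside 48.6% of all genes, 24.5% above and 24.1% below. The Dll4 difference held in each of the 21 alternative fits, and the Jag1 difference in 13 of them, with adjusted p up to 0.166. The Jag1 call was lost on leaving out any WT CDAHFD library, either KO chow library or KO CDAHFD replicate 1 (-0.84 to -0.62, BH-adjusted p = 0.0526 to 0.166).

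The interaction, the CDAHFD change in KO liver less that in WT liver, passed the threshold for Hey1 only among the 10, beside 23.1% of all genes tested, 8.63% above 0 and 14.5% below. Hey1 rose by 2.43 with CDAHFD in WT liver, and in KO liver it differed by 0.40 (SE 0.35, BH-adjusted p = 0.534) between the diets. The difference of these changes was -2.03 (SE 0.47, BH-adjusted p = 0.00800). WT chow, where Hey1 was lowest, enters this contrast once. The 95% interval ran below 0 for Jag1 (-1.09 to -0.07, BH-adjusted p = 0.0993), and it included 0 for Dll4 (-0.27 to 1.08, BH-adjusted p = 0.400) and Hes1 (-0.72 to 0.83, BH-adjusted p = 0.933).

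The makeup of the ligand and receptor RNA, as each gene's share of the summed TPM of its family, needs no scaling between libraries and is given as a description. In WT chow, Dll4 made up 44.1% ± 2.11 (SD, n = 4) of the 4 ligands, Jag1 32.4% ± 3.82, Dll1 22.6% ± 4.14 and Jag2 0.786% ± 0.733. WT CDAHFD had another order, with Jag1 at 58.6% ± 1.55 (SD, n = 3), Dll1 at 28.9% ± 2.48, Dll4 at 11.3% ± 1.72 and Jag2 at 1.22% ± 0.422. KO chow lay nearer to WT chow in Jag1, at 32.9% and 35.7%, while its Dll4 shares were 25.3% and 39.2%. KO CDAHFD had 51.6% ± 2.25 Jag1, 33.1% ± 3.39 Dll1, 13.3% ± 2.25 Dll4 and 2.02% ± 0.523 Jag2 (SD, n = 3). The ratio of Jag1 to Dll4 in TPM was 0.615 to 0.841 for WT chow and 0.839 and 1.41 for KO chow, but 4.47 to 6.20 for WT CDAHFD and 3.26 to 4.72 for KO CDAHFD, so chow and CDAHFD libraries did not overlap.

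Among the receptors, Notch2 held the greatest share in every group, 70.3% ± 3.32 for WT chow (SD, n = 4), 61.7% ± 0.859 for WT CDAHFD (SD, n = 3), 66.7% and 67.7% for KO chow, and 67.6% ± 2.57 for KO CDAHFD (SD, n = 3). Notch1 took 13.997% to 18.4% for WT chow and 23.7% to 26.7% for WT CDAHFD, ranges that did not overlap. Notch4 took 7.35% to 8.83% for WT chow and 7.18% and 10.1% for KO chow, and less in WT CDAHFD (4.73% to 5.27%) and KO CDAHFD (5.38% to 6.12%).

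**Figure D3:**
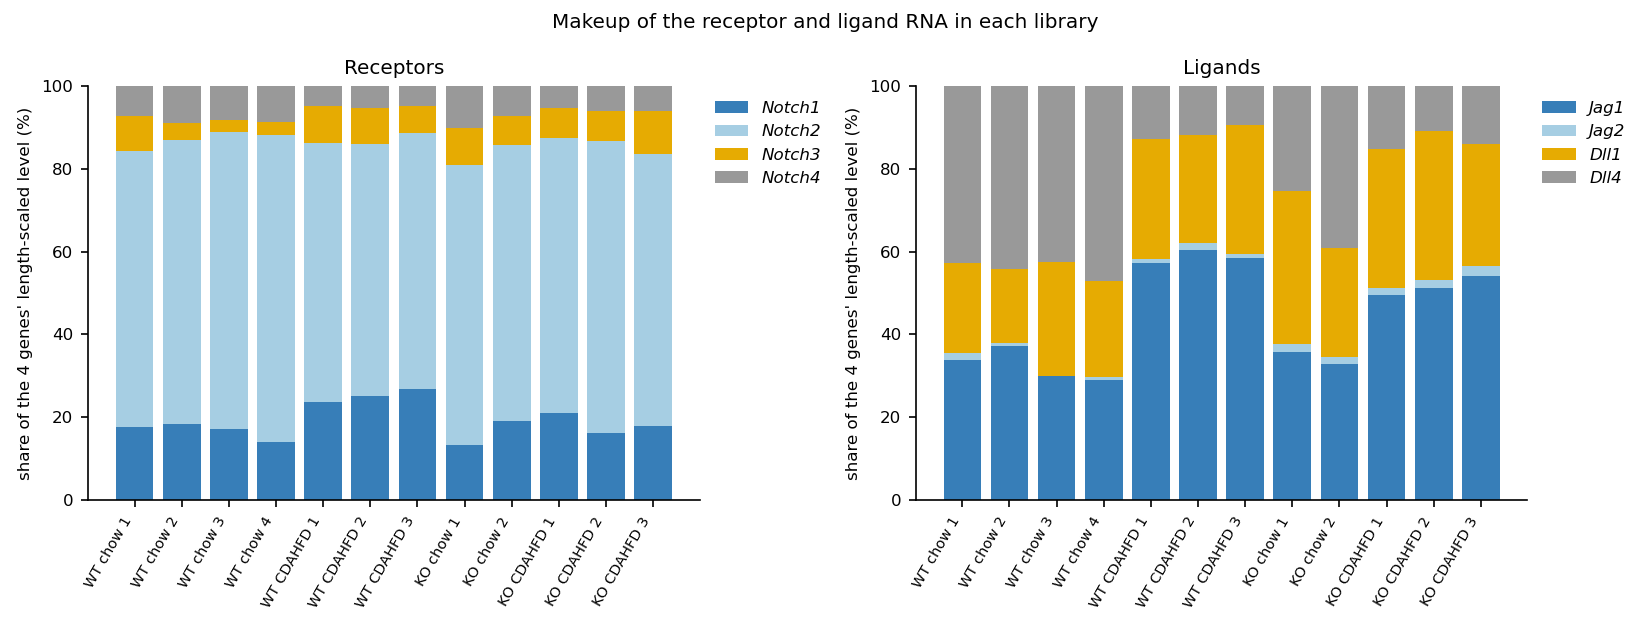
Stacked bars give, for each liver library (horizontal axis), the share in percent of the summed length-scaled level of the 4 receptor genes (left) and of the 4 ligand genes (right). Dll4 takes 25.3% or more of the ligands in every chow library and at most 15.2% in every CDAHFD library, and Notch2 is the main receptor in all 12.

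Liver holds several cell types that use these genes, and in bulk RNA fewer cells of a type cannot be told apart from less RNA per cell. Of the 10 endothelial markers, which include the vascular growth factor receptor Kdr and the junction protein Cdh5, 4 fell and none rose in WT CDAHFD, where Kdr had a log2 fold change of -1.36 (SE 0.30, BH-adjusted p = 0.00238) and Cdh5 of -0.73 (SE 0.22, BH-adjusted p = 0.0149), but none fell and 2 rose with scaling by library size only. The same 4 genes fell in KO CDAHFD (none fell and 3 rose with library size only), and in KO chow 1 rose. Their summed CPM ran from 279.1 to 415.7 for WT chow, 228.7 to 304.0 for WT CDAHFD, 281.1 to 389.4 for KO chow and 232.9 to 369.8 for KO CDAHFD. Relative to this sum, a ratio formed after the values were seen, Dll4 stood at 1.36% to 1.91% for WT chow, 1.62% and 1.78% for KO chow, 0.658% to 0.822% for WT CDAHFD and 0.855% to 1.28% for KO CDAHFD, so chow and CDAHFD libraries did not overlap. Notch4 stood at 0.986% to 1.46% of the sum in WT chow, 1.24% and 1.62% for KO chow, 1.17% to 1.33% for WT CDAHFD and 1.21% to 1.39% for KO CDAHFD, where all groups overlapped.

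Beside the rise of Jag1, 6 of the 7 cholangiocyte markers rose in each CDAHFD group, and in KO chow 5 rose and 1 fell (6 rose and none fell with library size only). Epcam, a surface protein of bile duct cells, rose by 3.08 (SE 0.25, BH-adjusted p = 6.57e-07) for WT CDAHFD. The summed CPM of this list ran from 69.8 to 104.9 for WT chow, 187.1 to 306.0 for KO chow, 386.4 to 608.3 for WT CDAHFD and 602.2 to 914.7 for KO CDAHFD, with no overlap with WT chow. Beside the rise of Notch3, 3 of the 8 stellate and smooth muscle markers rose in WT CDAHFD and in KO chow, and 5 in KO CDAHFD, with sums of 85.1 to 141.5 CPM in WT chow, 233.5 to 277.0 for WT CDAHFD, 231.8 to 247.7 for KO chow and 248.0 to 303.8 for KO CDAHFD. The sum of the 8 macrophage markers was 254.3 to 461.4 CPM in WT chow and 822.7 or more in every other library, with 5 to 6 of them higher. Timd4, of resident Kupffer cells, was the 1 of them that fell in both CDAHFD groups. All 6 hepatocyte markers fell in both CDAHFD groups and 4 in KO chow, with sums of 80682 to 100298 CPM in WT chow against 39846 to 54500 for KO CDAHFD, and with library size only the falls numbered 6 for WT CDAHFD, 5 for KO CDAHFD and none in KO chow. Of 3 neutrophil markers tested, 2 rose in KO chow and WT CDAHFD and 3 in KO CDAHFD, and of 7 T and B cell markers Cd8a rose and Cd4 fell in each comparison with WT chow while Cd3d rose in both KO groups. With library size only, 4 of the 7 T and B cell markers rose and none fell in KO chow. All 4 erythroid genes fell in WT CDAHFD (none with library size only) and 1 rose in KO chow. Neutrophil markers summed to 0.871 to 8.39 CPM in WT chow and 9.70 to 21.6 elsewhere, and T and B cell markers to 5.78 to 10.01 CPM over all libraries. Erythroid markers summed to 103.7 to 266.1 CPM in WT chow, 68.8 to 84.4 for WT CDAHFD, 160.3 and 370.5 for KO chow and 93.8 to 126.7 for KO CDAHFD. The part of these cells in the Notch genes' values was not tested.

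The other genes of the pathway moved in both directions, but with scaling by library size only no fall was left in the 4 lists of glycosylation, cutting enzymes, nuclear complex and endocytosis save that of Maml3 in KO chow, and more genes rose. Of the 4 remaining ligands, Dll3 had no count, Dlk2 and Dner had at most 4 counts in a library, and Dlk1, a Delta-like protein of fetal liver, was the 1 tested. Dlk1 had 0, 0, 0 and 2 counts in WT chow, 12, 15 and 13 for WT CDAHFD, 15 and 6 for KO chow, and 19, 16 and 12 for KO CDAHFD, and it passed the test in the 3 comparisons with WT chow (BH-adjusted p = 0.00639 for KO chow, 0.00267 for WT CDAHFD and 8.28e-04 for KO CDAHFD). Among 6 genes of receptor glycosylation and processing, 3 rose and 2 fell in WT CDAHFD, and 2 rose and 2 fell in each KO group, against 4 rises in each CDAHFD group and 3 in KO chow with library size only. The Fringe enzymes, which extend the O-fucose on Notch and set which ligand it answers, split. Lfng rose by 1.34 (SE 0.20, BH-adjusted p = 1.11e-04) and Mfng by 1.09 (SE 0.23, BH-adjusted p = 0.00175) for WT CDAHFD, while Rfng changed by -0.53 (SE 0.12, BH-adjusted p = 0.00255) and the protease Furin by -0.48 (SE 0.14, BH-adjusted p = 0.0104), both slightly positive with library size only.

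Of 9 genes of the cutting enzymes, 3 rose and 2 fell in both CDAHFD groups, and 3 rose and 1 fell in KO chow, against 6 rises in each comparison with library size only. Aph1c, a gamma-secretase subunit, rose by 2.31 (SE 0.21, BH-adjusted p = 1.57e-06) for WT CDAHFD, though its reads could be shared with the near copy Aph1b. Adam10, the protease of the first cut, rose by 0.92 (SE 0.12, BH-adjusted p = 4.14e-05). The subunits Psenen (-0.52, SE 0.14, BH-adjusted p = 0.00659) and Aph1a (-0.50, SE 0.11, BH-adjusted p = 0.00203) fell in WT CDAHFD, and both were slightly positive with library size only.

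In the nuclear complex of 9 genes, 2 rose and 4 fell in WT CDAHFD, 2 rose and 3 fell in KO CDAHFD, and none rose and 3 fell in KO chow. With library size only, 4 rose and none fell in WT CDAHFD, 5 rose and none fell in KO CDAHFD, and 3 rose and 1 fell in KO chow. Rbpj, the DNA-binding partner of cut Notch, rose by 0.49 (SE 0.10, BH-adjusted p = 0.00191) and the coactivator Maml2 by 0.97 (SE 0.25, BH-adjusted p = 0.00588) for WT CDAHFD. Its relative Maml3 fell by 0.62 on the log2 scale (SE 0.17, BH-adjusted p = 0.00720), against -0.06 (BH-adjusted p = 0.778) with library size only. The acetyltransferase Kat2b changed by -0.56 (SE 0.19, BH-adjusted p = 0.0258), which turned slightly positive with library size only.

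Among 13 genes of endocytosis and ubiquitin transfer, which act on ligands and receptors at the membrane, 7 rose and 2 fell in WT CDAHFD, 7 rose and 1 fell in KO chow, and 6 rose and 3 fell in KO CDAHFD, against 11 rises in each CDAHFD group and 7 in KO chow with library size only. The Neuralized ligases, which help ligands to be taken up, gave the largest rises of the list in WT CDAHFD. Neurl1a went from 0.303 CPM ± 0.193 (SD, n = 4) for WT chow to 3.18 ± 1.12 (SD, n = 3) for WT CDAHFD, 5.03 ± 1.28 (SD, n = 2) for KO chow and 5.72 ± 0.885 (SD, n = 3) for KO CDAHFD. Its log2 fold change in WT CDAHFD was 3.32 (SE 0.40, BH-adjusted p = 1.90e-05), and that of Neurl1b was 2.88 (SE 0.38, BH-adjusted p = 4.77e-05). The ligase Itch changed by -0.49 (SE 0.14, BH-adjusted p = 0.0115) and the Notch inhibitor Numb by -0.34 (SE 0.10, BH-adjusted p = 0.0128) for WT CDAHFD, both positive with library size only.

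Of 9 other Hes and Hey relatives and targets, 5 were tested, while Hes2, Hes3, Hes5 and Hes7 had at most 8 counts in a library. In each CDAHFD group 2 rose and 1 fell, and in KO chow 1 rose and 1 fell (3 and 1 with library size only). Heyl, a relative of Hey1, went from 2.59 CPM ± 0.834 (SD, n = 4) for WT chow to 6.32 ± 0.539 (SD, n = 3) for WT CDAHFD, 7.38 ± 1.05 (SD, n = 2) for KO chow and 8.68 ± 1.53 (SD, n = 3) for KO CDAHFD. Sox9, a transcription factor of bile duct cells that also stands in the cholangiocyte list, rose by 1.31 (SE 0.33, BH-adjusted p = 0.00491) for WT CDAHFD and by 1.52 (SE 0.33, BH-adjusted p = 0.00177) for KO CDAHFD. Hes6, which unlike Hes1 does not itself repress through the usual Hes sites, fell from 113.1 CPM ± 21.1 (SD, n = 4) for WT chow to 19.99 ± 2.34 (SD, n = 3) for WT CDAHFD, 31.5 ± 5.07 (SD, n = 2) for KO chow and 31.1 ± 1.37 (SD, n = 3) for KO CDAHFD. Its log2 fold changes were -2.50 (SE 0.16), -1.84 (SE 0.18) and -1.86 (SE 0.15), past the threshold in the 3 comparisons and also with library size only.

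**Figure D4:**
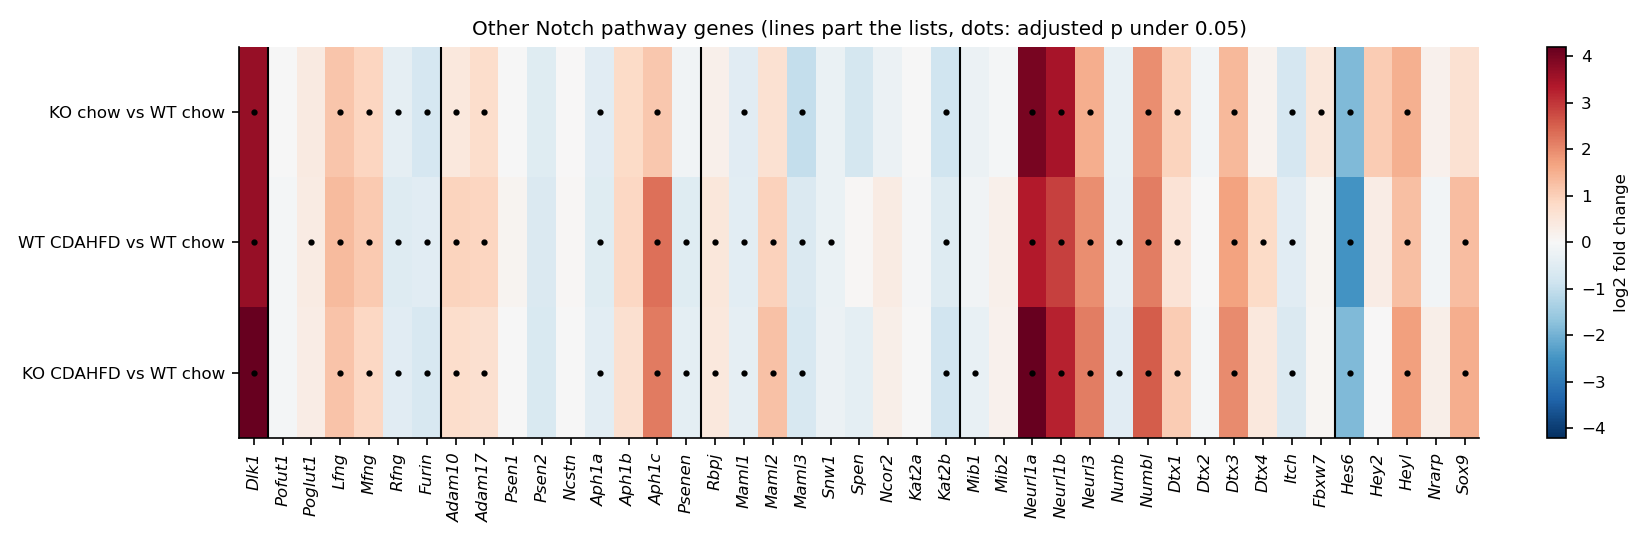
Colours give the log2 fold change relative to WT chow (scale at the right) of the other Notch pathway genes that were tested (columns, lines between the lists) in 3 comparisons (rows), with dots for an adjusted p under 0.05. Neurl1a and Neurl1b are dark red and Hes6 is blue in all 3 rows, with Hes6 at -2.50 for WT CDAHFD.

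The genes whose log2 CPM followed a member most closely over the 12 libraries were found by Pearson's r, as a description across libraries that share groups. Hey1 ran closest to Cd40 (r = 0.99), Amz1 (r = 0.98) and Lpcat2 (r = 0.98), and Jag1 to Fam241b (r = 0.98), Hvcn1 (r = 0.98) and Bspry (r = 0.98). Dll4 ran closest to Scd1 (r = 0.95), Fbp1 (r = 0.94) and D130043K22Rik (r = 0.94). For Notch3 these were Pcdh9, Kif3c and Prr5l (r = 0.97 to 0.99), and for Notch4 Gipc3, Ldb2 and Adgrl4 (r = 0.89 to 0.91). Notch1 was followed by Zfp217, Rab3gap2 and 9930111J21Rik1 (r = 0.94 to 0.95), and Notch2 by Syne3, Tbc1d2b and Sipa1l2 (r = 0.92 to 0.96). Jag2 was followed by Phlda2, Cdh11 and Zfp334 (r = 0.94 to 0.96), Dll1 by 2010008C14Rik, Cdca4 and Triqk (r = 0.95 to 0.96) and Hes1 by Klra7, Mcrip1 and Gorab (r = 0.90 to 0.93).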

How the data were processed

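Poly-A RNA of mouse liver was sequenced in 12 libraries that do not keep strand. The authors deposited raw counts per Ensembl gene and, per their processing notes, used FastQC 0.11.5, STAR 2.7.3a, GRCm38 and DESeq2. The counting program and annotation release are not given in the sources used here. Symbols and positions came from GENCODE M21, which matched 52081 identifiers holding 99.7% of the counts. Groups came from the labels.

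The counts were tested with edgeR 4.0.16 in R 4.3.3 (quasi-likelihood, TMM scaling, a filter on low counts, all 12 libraries in 1 fit, prior count 2), p-values adjusted across all 17358 tested genes by Benjamini and Hochberg (BH), and a threshold of 0.05. SE is the size of the log2 fold change over the root of F. DESeq2 1.42.0 and other settings served as alternatives. TPM were computed here from counts and exon length. The script was tested on simulated data. The genes, lists, tests and rule for named genes were chosen with earlier results of these data known. Genes named are the 10 members, from each pathway list the 2 largest rises and 2 largest falls that passed in WT CDAHFD against WT chow, and for each member the 3 genes with the highest Pearson's r. The cell type markers named one by one were picked after their values were seen.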

Additional observations from a re-analysis of the deposited data

Results flagged for a closer look

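Hey1 was singled out because its CDAHFD change differed between the genotypes in a test of that difference. The interaction was -2.03 on the log2 scale (SE 0.47, BH-adjusted p = 0.00800 by the quasi-likelihood test of edgeR, 95% interval -3.05 to -1.001). Hey1 stood at 0.488 CPM ± 0.233 (SD, n = 4) in WT chow, 2.64 ± 0.516 (SD, n = 3) in WT CDAHFD, 2.19 ± 0.177 (SD, n = 2) in KO chow and 2.89 ± 0.588 (SD, n = 3) in KO CDAHFD. It was higher in all 3 WT CDAHFD libraries than in any WT chow library, while the KO groups overlapped. The interaction held in each of the 20 alternative fits that gave it, from -2.37 to -1.77, with adjusted p from 9.88e-05 to 0.0354.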

How the results depend on the processing

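Of the values of single genes under the alternatives, 665 kept their direction and side of the threshold, 39 lost it, 22 gained it and 8 turned in direction. KO chow against WT chow turned without KO chow replicate 2 for Notch1 (-0.53, and up to 0.59 leaving out any other library), Notch2 (-0.23, up to 0.34) and Dll4 (-0.22, up to 0.41), and with only the 8 libraries with a clock score above 0, an alternative added after seeing the data (Notch1 -0.51, Notch2 -0.060, Dll4 -0.17). Those 8 libraries also leave out KO chow replicate 2, so in both settings KO chow is replicate 1 alone. With library size only, Notch4 turned to 0.18 for WT CDAHFD and 0.42 for KO CDAHFD. The cause was not tested.

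Since those 8 libraries hold 1 of KO chow, no counts of the 10 genes are given for its comparisons in them. Counts over all genes for the KO chow comparisons in the 8 libraries are given below, but rest on that 1 library. Library size only gave 1 of the 10 genes for KO CDAHFD against KO chow and 3 in the interaction (Jag1, Dll1 and Hey1). Fitting only the groups compared gave 0 for KO CDAHFD against KO chow. Over all genes, KO CDAHFD against WT CDAHFD gave 62 calls, but 215 without the filter, 250 with DESeq2, 103 with edgeR's current defaults, 154 with only these groups, 166 with the clock score as covariate and 113 in the 8 libraries. KO CDAHFD against KO chow gave 1075, but 1903 with DESeq2, 581 with only these groups, 1641 with the clock score and 600 in the 8 libraries. KO chow against WT CDAHFD gave 1063, but 2074 with DESeq2, 1985 with only these groups, 2379 with the clock score and 2680 in the 8 libraries. Library size only moved the share of calls that were higher from 56.4% to 86.0% for KO chow, 51.0% to 88.6% for WT CDAHFD and 51.4% to 89.9% for KO CDAHFD, relative to WT chow.

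Leaving out 1 library at a time gave 4320 to 7128 genes and 1 to 6 of the 10 for KO chow against WT chow, where Hey1 alone remained without KO chow replicate 1. The ranges were 26 to 75 genes in KO CDAHFD against WT CDAHFD, 233 to 1437 genes and 0 to 2 of the 10 for KO CDAHFD against KO chow, 260 to 1469 genes and 1 to 2 of the 10 for KO chow against WT CDAHFD, and 1 to 2 of the 10 in the interaction, where Notch3 joined without WT chow replicate 1. Where 1 KO chow library was left, as also in the fit of 8 libraries with a clock score above 0, it was assumed to vary like the other groups.

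Libraries with the same number in their titles were correlated after each gene's group mean was taken off. The r ran from -0.24 to 0.27 over 15 pairs, with 3 over 0.1. The main fit treats these libraries as sharing only a number. The r cannot settle this, since taking off group means ties the values within a group to each other. The 2 KO chow libraries mirror each other after this step, so the r of either is that of the other with its sign turned. The lowest r is that of KO chow replicate 2 with KO CDAHFD replicate 2. The description of that KO chow library numbers it 3, and its r was 0.23 with WT chow replicate 3 and 0.25 with KO CDAHFD replicate 3, but the descriptions number KO chow and KO CDAHFD in 1 series, so they pair no KO libraries across diets. With the replicate block, KO CDAHFD against KO chow gave 640 genes and 0 of the 10 (Jag1 0.73, BH-adjusted p = 0.0541, and Dll4 -1.08, BH-adjusted p = 0.0558, both by edgeR), KO chow against WT CDAHFD gave 1 of the 10, and Jag2 missed the threshold in KO chow against WT chow (1.78, BH-adjusted p = 0.121).

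With 2 KO chow libraries, the comparisons that use this group rest most on single libraries. Jag2 and Hey1 for WT chow rest on 0 to 20 counts a library.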
